A study of Mus musculus with 48 samples.

Results

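*Apoe*, the gene of apolipoprotein E, was followed through the first 2 weeks of life in 2 compartments of the mouse cerebral cortex, tissue enriched in astrocytes and tissue enriched in microvessels. It is 1 of 20175 probe codes in the data, code RTS0080776. It was chosen by that code, with no rule on its level, but earlier results of these data were known. The probe codes carry no gene names, and the name rests on the astrocyte-enriched values: averages of the normalized counts of this code equalled all 12 values that the study lists for *Apoe*, while no other code equalled more than 1 of them. The microvessel-enriched values played no part in the naming. In the GRCm39 assembly with GENCODE M39, *Apoe* lies on the minus strand of chromosome 7, from 19430034 to 19434947, and its main transcript has 4 exons. The files themselves give no coordinates.

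Apolipoprotein E is the main carrier of cholesterol and phospholipids between cells of the brain. In the brain it is made mostly by astrocytes, which load it with lipid through transporters of their membrane and release it as particles that other cells take up through receptors of the low-density lipoprotein receptor family. Microglia and cells of the vessel wall also make it, and the protein has been linked to the integrity of brain capillaries.

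All animals were wild-type noncarrier mice of the *Aldh1l1-eGFP* (BAC) strain, with no treatment, so the controls of this comparison are the earlier ages and the other compartment. Probes were hybridized to thin paraffin sections of the brain, and the probe tags were released by UV light from areas of interest (AOIs) drawn by antibody staining: astrocyte-enriched AOIs were ALDH1L1+CD31- and microvessel-enriched AOIs were CD31+ALDH1L1-. Each of 4 slides, named PO1, PO2, PO3 and PO5, held 6 regions with 1 AOI of each type, which gives 24 AOIs per type. The ages are not in the sample labels. Regions 1 and 2 of a slide were taken as P0, regions 3 and 4 as P5 and regions 5 and 6 as P14, as inferred from the study's listed values, and 2 AOIs that shared slide, age and AOI type were treated as 1 animal, which gives 4 animals per age. The study's methods average 2 AOIs per mouse but do not say which, the labels name no mouse, and the number of samples the methods give for the slides is not the number of animals counted here. So p-values measure the spread between these slides and ages, which may not be the spread between mice. At P5 the listed *Apoe* values average AOIs of different slides, so there the assignment of AOIs to animals is less certain. The title of 1 astrocyte-enriched AOI at P14 names slide PO5 and its slide label names PO3; the label was followed. An AOI is a mixture of cells, and more *Apoe* in it can mean more cells that make it or more RNA per cell, which these data cannot tell apart.

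A normalized count is the count of the code divided by the 75th percentile (Q3) of all codes in that AOI, brought back to the scale of counts by a common factor of 19.2. Totals ran from 46942 to 5635825 counts per AOI. The *Apoe* code had 30 to 2651 counts in the astrocyte-enriched AOIs. In the microvessel-enriched AOIs it had 8 to 29 counts at P0 and P5 and 11 to 244 at P14, and there the Q3 itself was a whole number between 3 and 18, which makes the scale coarse. The AOI with fewest *Apoe* counts, 8 at P0 on slide PO3, had a normalized count of 25.6 with an exact 95% Poisson interval of 11.1 to 50.5. Such intervals cover counting error only. Background from unbound probe was not subtracted.

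The endothelial genes and *Aldh1l1* followed the AOI types. The gene of CD31, which defined the microvessel-enriched AOIs, was not among the named genes. The 6 endothelial genes that could be named all had higher levels in the microvessel-enriched AOIs, against 3.01% of all codes, in edgeR's quasi-likelihood test with Benjamini-Hochberg adjustment at 0.05. Here and below, shares of all codes are shares of the codes tested. These were 20100 between AOI types, and for ages 20173 in astrocyte-enriched and 13182 in microvessel-enriched AOIs. The tight junction gene *Cldn5* had a log2 ratio of 3.04 (standard error 0.16, adjusted p = 1.53e-16 from edgeR). *Aldh1l1*, the folate enzyme whose protein marked the astrocytes, had a log2 ratio of −0.89 (standard error 0.12, adjusted p = 2.61e-06 from edgeR). It was 1 of 3 astrocyte markers of 7 that passed as lower, where 4.22% of all codes did. Those that did not pass were *Aqp4* at −0.46, *Gja1* at −0.37, *Gfap* at −0.12 and *S100b* at −0.08. All 7 astrocyte markers (*Aldh1l1*, *Gfap*, *S100b*, *Aqp4*, *Gja1*, *Slc1a2*, *Dtna*) and all 4 endothelial markers (*Cldn5*, *Kdr*, *Cdh5*, *Nos3*) had counts in every animal in both AOI types. Most codes did so, with no background subtracted, so these counts do not show how much of one cell type the AOIs of the other held. Codes of microglial, pericyte and neuronal markers could not be named here, and the share of such cells was not tested.

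*Apoe* rose with age in both compartments. In astrocyte-enriched AOIs the mean normalized count was 32.6 ± 6.61 at P0, 136 ± 92.7 at P5 and 264 ± 106 at P14 (SD, n = 4 animals each). In microvessel-enriched AOIs it was 26.5 ± 7.36 at P0, 51.4 ± 16.4 at P5 and 197 ± 70.6 at P14 (SD, n = 4 animals each). In order from low to high the groups ran from microvessels at P0 over astrocytes at P0, microvessels at P5, astrocytes at P5 and microvessels at P14 to astrocytes at P14, and each of the 5 pairs of neighbours in that order overlapped in range. Within the library of an animal, *Apoe* ranked between 1070 and 2705 of all codes by count in astrocyte-enriched AOIs at P0 and between 55 and 221 at P14. In microvessel-enriched AOIs it moved from between 1673 and 4478 to between 74 and 125. At P0 its count was only 1.33 to 3.86 times that of the median code of the same AOI, over all 16 AOIs, so it started near the bulk of the probes and ended among the strongest. Without scaling, the median of *Apoe* counts per 1000 µm2 in astrocyte-enriched AOIs was 2.22 at P0, 4.97 at P5 and 6.61 at P14. In microvessel-enriched AOIs it was 2.28, 3.18 and 8.16, and P0 (1.78 to 4.29) and P14 (2.40 to 24.3) overlapped in range. The same median for all codes together fell from 27579 at P0 to 10402 at P14, and in microvessel-enriched AOIs from 41470 to 14878. The part of that fall in the rise of normalized counts was not tested.

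**Figure D1:**
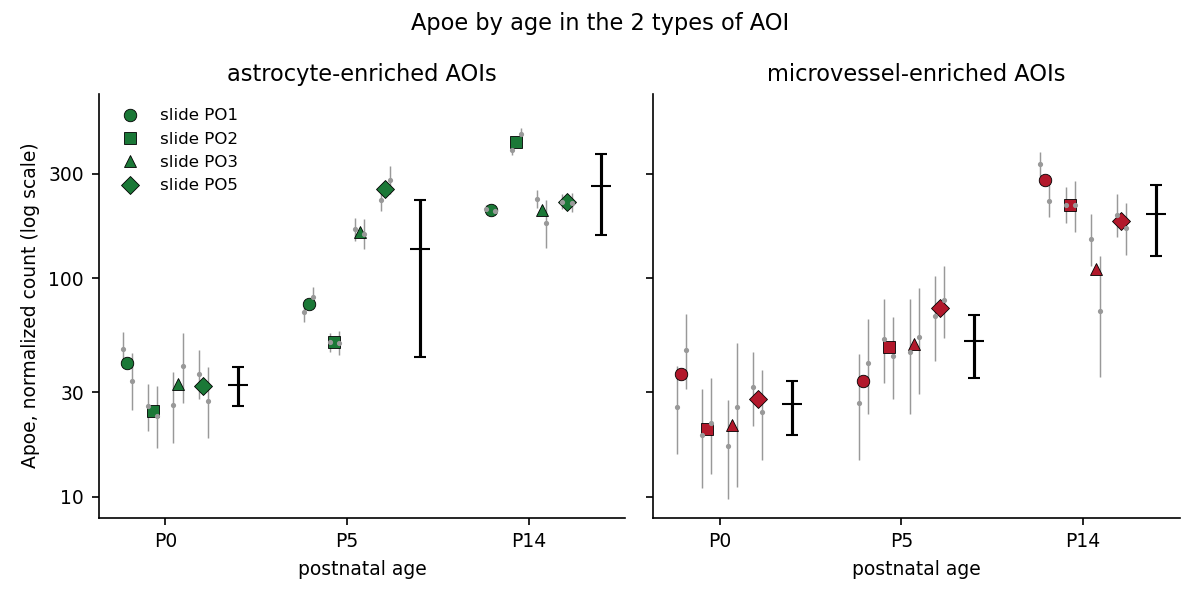
Normalized counts of *Apoe* (log axis) by postnatal age, with astrocyte-enriched AOIs on the left and microvessel-enriched AOIs on the right. Coloured symbols are animals, 1 per slide and age, grey dots are their 2 AOIs with exact 95% Poisson intervals, and the black bar beside each age is the mean ± SD of 4 animals. The P5 animals of the left panel spread from 50.8 to 255, while those of the right panel stay between 33.8 and 73.4.

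The first step, from birth to P5, was seen in the astrocyte-enriched AOIs of every slide. At P0 the 4 animals had normalized counts of 40.8 on slide PO1, 24.6 on PO2, 32.9 on PO3 and 32.0 on PO5. At P5 they had 75.9 on PO1, 50.8 on PO2, 163 on PO3 and 255 on PO5. The lowest P5 animal lay above the highest P0 animal, and the P5 animals of slides PO3 and PO5 stood well above those of PO1 and PO2. The log2 fold change was 1.87 (standard error 0.38, adjusted p = 0.0019 from edgeR with the slide as a block), where 7.32% of all codes passed as higher. The step was larger on some slides than on others: the ratio of P5 to P0 was 1.86 on PO1, 2.06 on PO2, 4.96 on PO3 and 7.97 on PO5. Fitted on PO1 and PO2 alone the log2 fold change was 0.87 (adjusted p = 9.64e-06 from edgeR), where 2166 of 20175 codes passed as higher. On PO3 and PO5 alone it was 2.67 (adjusted p = 7.55e-25 from edgeR), where 1524 of 20165 codes did. Each of these fits held 2 animals per age, so its p-value says little about the spread between animals. The 2 AOIs of a slide at P5 differed by 1.00-fold to 1.24-fold. The listed P5 values of *Apoe* average AOIs of different slides, whereas those of *Dtna* and *Slc1a2* equal averages of AOIs of the same slide. With AOIs paired across slides as in the listed *Apoe* values, the SD between P5 animals was 66.3 in place of 92.7, and in microvessel-enriched AOIs 9.88 in place of 16.4. Which pairing follows the mice is not known.

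Other properties of the P5 AOIs went with the slides in the same way. On PO1 and PO2 the astrocyte-enriched areas at P5 measured 87360 to 167917 µm2, and on PO3 and PO5 they measured 17181 to 43515 µm2. *Aldh1l1* had normalized counts of 23.4 and 28.7 on PO1 and PO2 and of 48.6 and 56.7 on PO3 and PO5. Per area of tissue, with no scaling to the other codes, *Apoe* gave 2.36 to 4.20 counts per 1000 µm2 in the AOIs of PO1 and PO2 and 5.73 to 11.1 in those of PO3 and PO5. The astrocyte-enriched AOI of region 3 on PO3 was labelled with only 1 nucleus, where the other P5 AOIs of this type had 101 to 1061. Its normalized count was 167, beside 159 in the other AOI of that animal. The part of AOI size, nucleus number and astrocyte content in the spread of *Apoe* at P5 was not tested.

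From P5 to P14 the astrocyte-enriched AOIs split by slide. At P14 the normalized counts were 206 on PO1, 422 on PO2, 205 on PO3 and 223 on PO5. The median code over Q3 at P14 was 0.39 on PO1 and 0.46 on PO2, against 0.70 on PO3 and 0.68 on PO5. The part of that difference in the *Apoe* values was not tested. The ratio of P14 to P5 was 2.71 on PO1 and 8.30 on PO2 but 1.25 on PO3 and 0.87 on PO5, and the ranges of the ages overlapped. The log2 fold change was 1.14 (standard error 0.37, adjusted p = 0.0439 from edgeR), where 6.33% of all codes passed as higher. This call was not stable. Without the slide as a block it was 1.00 (adjusted p = 0.0873 from edgeR), on slides PO3 and PO5 alone it was 0.13 (adjusted p = 0.689 from edgeR), and the exact two-sided permutation test of 4 animals against 4 gave p = 0.114. Leaving out slide PO1 gave 1.05 (adjusted p = 0.106 from edgeR) and leaving out slide PO2 gave 0.50 (adjusted p = 0.479 from edgeR). Without the P14 animal of PO2 it was 0.62 (adjusted p = 0.208 from edgeR), without the P5 animal of PO2 0.67 (adjusted p = 0.343 from edgeR) and without the P5 animal of PO1 0.91 (adjusted p = 0.227 from edgeR). On the log2 scale, the level at P5 had reached 38.4% of the way from P0 to P14 on PO1 and 25.5% on PO2, against 87.7% on PO3 and 107% on PO5.

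Over the whole interval the astrocyte-enriched rise was present on each slide, with ratios of P14 to P0 of 5.05 on PO1, 17.1 on PO2, 6.21 on PO3 and 6.96 on PO5. The lowest P14 animal was at 205 and the highest P0 animal at 40.8. The log2 fold change was 3.01 (standard error 0.39, adjusted p = 3.56e-06 from edgeR), where 13.4% of all codes passed as higher and 21.4% as lower.

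In the microvessel-enriched AOIs the first step did not pass the test. The P0 animals had normalized counts of 36.4 on PO1, 20.5 on PO2, 21.3 on PO3 and 28.0 on PO5, and the P5 animals had 33.8, 48.5, 49.9 and 73.4 on the same slides. The P5 animal of PO1 lay below the P0 animal of that slide, and on the other slides the P5 level was 2.34 to 2.62 times that at P0. The log2 fold change was 1.05 (standard error 0.29, adjusted p = 0.105 from edgeR), where 0.296% of all codes passed as higher. It passed in DESeq2 with 1.12 (adjusted p = 0.0497 from DESeq2), in a fit of these 2 ages alone with 1.02 (adjusted p = 2.18e-05 from edgeR) and without the P5 animal of PO1 with 1.39 (adjusted p = 0.0309 from edgeR).

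The later step was present on every slide. At P14 the normalized counts were 280 on PO1, 216 on PO2, 111 on PO3 and 182 on PO5, and each lay above every P5 animal. Other genes separated slides PO1 and PO2 from PO3 and PO5 at P14 in these AOIs: *Cldn5* had normalized counts of 280 and 244 against 70.4 and 97.6, *Slc1a2* 1081 and 1006 against 241 and 358, and *Gja1* 105 and 91.2 against 38.9 and 56.8. The median code over Q3 was 0.46 to 0.50 on PO1 and PO2 and 0.64 to 0.67 on PO3 and PO5. The part of these differences in the *Apoe* values was not tested. On PO1 and PO2 alone the log2 fold change from P5 to P14 was 2.58 (adjusted p = 1.25e-37 by edgeR), where 1202 of 16042 codes passed as higher. On PO3 and PO5 alone it was 1.26 (adjusted p = 2.84e-05 by edgeR), where 134 of 10199 codes did. Both fits held few animals, so their p-values say little about the spread between animals. The ratio of P14 to P5 ran from 2.22 on PO3 to 8.28 on PO1. Over all slides the log2 fold change came to 1.94 (standard error 0.27, adjusted p = 8.33e-06 from edgeR), where 3.07% of all codes passed as higher. For P14 against P0 the value was 2.99 (standard error 0.27, adjusted p = 7.28e-10 from edgeR), where 7.12% of all codes passed as higher, and the ratio on single slides ran from 5.19 to 10.5. Ranked by log2 fold change, *Apoe* stood at place 10 of the 13182 codes tested in that comparison. Beside this rise, the summed normalized counts of the 7 astrocyte markers in the microvessel-enriched AOIs ran from 80.9 to 112 at P0, from 104 to 137 at P5 and from 387 to 1305 at P14. For the 5 markers other than *Slc1a2* and *Gja1* the sums were 53.7 to 81.3 at P0, 53.1 to 76.6 at P5 and 92.0 to 119 at P14. The part of astrocyte RNA in the *Apoe* counts of microvessel-enriched AOIs was not tested.

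In 11 of 12 animals *Apoe* had a lower normalized count in the microvessel-enriched AOIs than in the astrocyte-enriched ones. The ratio of microvessel to astrocyte normalized counts was 0.89 on PO1, 0.83 on PO2, 0.65 on PO3 and 0.87 on PO5 at P0. At P5 it was 0.45, 0.95, 0.31 and 0.29 on the same slides, and at P14 it was 1.36, 0.51, 0.54 and 0.82. The single animal above 1 was the P14 animal of slide PO1. With counts over the library total its ratio was 1.52, and the P5 animal of PO2 was also above 1, at 1.08. Per 1000 µm2 the median count was 2.28 in microvessel-enriched against 2.22 in astrocyte-enriched AOIs at P0. It was 3.18 against 4.97 at P5 and 8.16 against 6.61 at P14, so the direction depended on the scale used. Over all ages the log2 ratio was −0.57 (standard error 0.14, adjusted p = 0.00777 from edgeR with the animal as a block), where 4.22% of all codes passed as lower. It no longer passed without the animal block (−0.65, adjusted p = 0.0718 from edgeR), on slides PO1 and PO2 alone (−0.32, adjusted p = 0.434 from edgeR), without slide PO3 (−0.45, adjusted p = 0.103 from edgeR) or without slide PO5 (−0.52, adjusted p = 0.0532 from edgeR).

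**Figure D2:**
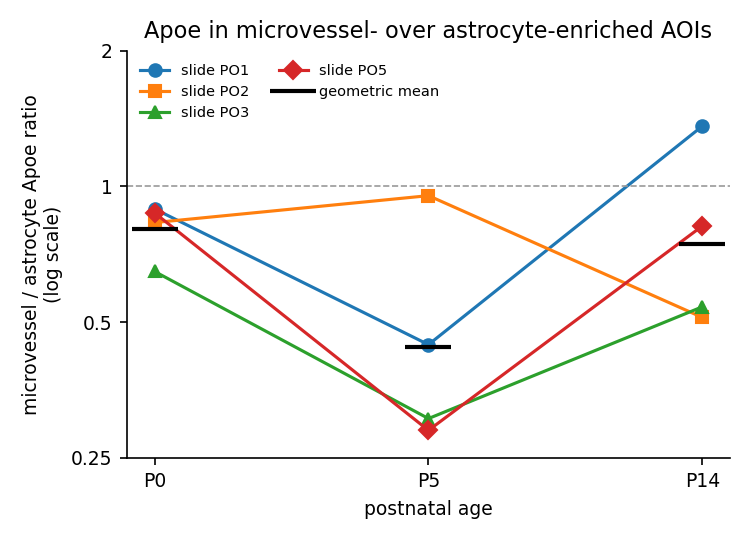
Ratio of the *Apoe* normalized count, microvessel-enriched divided by astrocyte-enriched, within an animal (log axis) by postnatal age, with 1 symbol per animal. Lines join the different animals of a slide, black bars are geometric means, and the dashed line marks equal levels. The lowest ratios are those of slides PO3 and PO5 at P5, at 0.31 and 0.29.

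Taken by age, the difference between the compartments passed at P5, where the log2 ratio was −1.13 (standard error 0.18, adjusted p = 4.32e-06 from edgeR), while 4.53% of all codes passed as lower. On slides PO1 and PO2 alone it was −0.54 (adjusted p = 0.261 from edgeR). On PO3 and PO5 alone it was −1.64 (adjusted p = 1.79e-14 from edgeR), where 405 of 20145 codes passed as lower. Both fits held few animals, so their p-values say little about the spread between animals. At P0 the log2 ratio was −0.33 (standard error 0.20, adjusted p = 0.458 from edgeR), where 1.46% of all codes passed as lower, and the P14 value was −0.26 (standard error 0.12, adjusted p = 0.185 from edgeR), where 8.91% passed as lower. Without slide PO1 the ratio at P14 was −0.62 (adjusted p = 8.32e-05 from edgeR).

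Whether *Apoe* changed differently in the compartments was tested as the change of that log2 ratio between ages. Between P0 and P5 it fell by 0.80 (standard error 0.28, adjusted p = 0.090 from edgeR), where 5.09% of all codes passed in either direction. Between P5 and P14 it rose back by 0.87 (standard error 0.22, adjusted p = 0.0555 from edgeR), where 0.448% passed. Both values missed the threshold with Q3 scaling and passed it with TMM scaling, at −0.86 (adjusted p = 0.0382 from edgeR) and 0.88 (adjusted p = 0.0245 from edgeR). From P0 to P14 the change of the ratio was 0.07 (standard error 0.24, adjusted p = 0.936 from edgeR), where 8.79% passed. A difference between the compartments in the course of the rise was therefore not called. The first 2 of these values varied with the slides. Without slide PO2 they passed, at −1.14 (adjusted p = 0.00562 from edgeR) and 1.43 (adjusted p = 0.000166 from edgeR). The change from P0 to P5 was smallest without slide PO5, at −0.49 (adjusted p = 0.568 from edgeR), and that from P5 to P14 without slide PO1, at 0.52 (adjusted p = 0.695 from edgeR). On PO1 and PO2 alone they were −0.26 (adjusted p = 0.836 from edgeR) and 0.42 (adjusted p = 0.712 from edgeR).

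Set against *Aldh1l1* in the same libraries, where no scaling enters, *Apoe* also rose. In astrocyte-enriched AOIs the ratio of *Apoe* to *Aldh1l1* counts was 0.81 to 1.20 at P0, 1.84 to 4.67 at P5 and 4.66 to 7.31 at P14. In microvessel-enriched AOIs it was 1.00 to 2.24 at P0, 2.38 to 5.56 at P5 and 5.50 to 10.1 at P14. In both compartments P0 and P5 animals did not overlap (exact two-sided permutation p = 0.0286, the smallest that 4 against 4 animals allow), and P5 and P14 animals overlapped narrowly (exact permutation p = 0.0571). In microvessel-enriched AOIs the gap between P0 and P5 was narrow, with 2.24 and 2.38 on either side. There the P5 animals had 26 to 50 *Apoe* counts and fewer *Aldh1l1* counts, so a change of few counts could close that gap. The counts of the 2 probes cannot be read as relative amounts of the 2 RNAs, and only the change of the ratio is given.

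Some of the 7 other astrocyte genes of the study's panel rose with age as *Apoe* did, and others did not pass. In astrocyte-enriched AOIs 1 of the 7 passed as higher from P0 to P5, namely *Slc1a2*, the main glutamate transporter of astrocytes, where 7.32% of all codes passed, and 0 were lower. From P5 to P14 4 of 7 were higher, against 6.33% of all codes: *Slc1a2*, the gap junction gene *Gja1*, the calcium-binding protein gene *S100b* and *Dtna*, the gene of a dystrophin-associated protein. From P0 to P14 these and the water channel gene *Aqp4* were higher, 5 of 7 against 13.4% of all codes, with a median log2 fold change of 0.98 over the 7 genes against −0.31 over all codes. In microvessel-enriched AOIs 0 of 7 passed from P0 to P5 (1 at an unadjusted p under 0.05), where 0.296% of all codes passed, so that count says little about the list. There 2 of 7 rose from P5 to P14 (*Slc1a2* and *Gja1*), against 3.07% of all codes, and 3 of 7 from P0 to P14 (also *S100b*), against 7.12%. *Apoe* was the only member of this panel besides *Slc1a2* that passed as higher from P0 to P5 in astrocyte-enriched AOIs, and *Gja1* missed the threshold there with 1.21 (standard error 0.39, adjusted p = 0.0505 from edgeR). *Aldh1l1* and *Gfap* passed in none of the 3 age comparisons of either AOI type. The endothelial genes gave 0 of 6 higher from P0 to P5 in both AOI types (0 and 3 at an unadjusted p under 0.05), against 7.32% and 0.296% of all codes. In astrocyte-enriched AOIs *Mfs2da* and *Tgp1* rose from P5 to P14, 2 of 6 against 6.33%, and *Tgp1* from P0 to P14, 1 of 6 against 13.4%. In microvessel-enriched AOIs 0 of 6 passed from P5 to P14 (0 at an unadjusted p under 0.05), against 3.07%, and 3 of 6 (*Kdr*, *Mfs2da* and *Nos3*, these names spelled as listed) rose from P0 to P14, against 7.12%. Of 7 angiogenic genes, 1 rose (*Vegfa*) and 2 fell (*Hmgb1* and *Tgfb2*) from P0 to P14 in astrocyte-enriched AOIs, shares close to the 13.4% and 21.4% of all codes, and in microvessel-enriched AOIs only 4 of them had enough counts for the test and 0 passed (1 at an unadjusted p under 0.05).

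**Figure D3:**
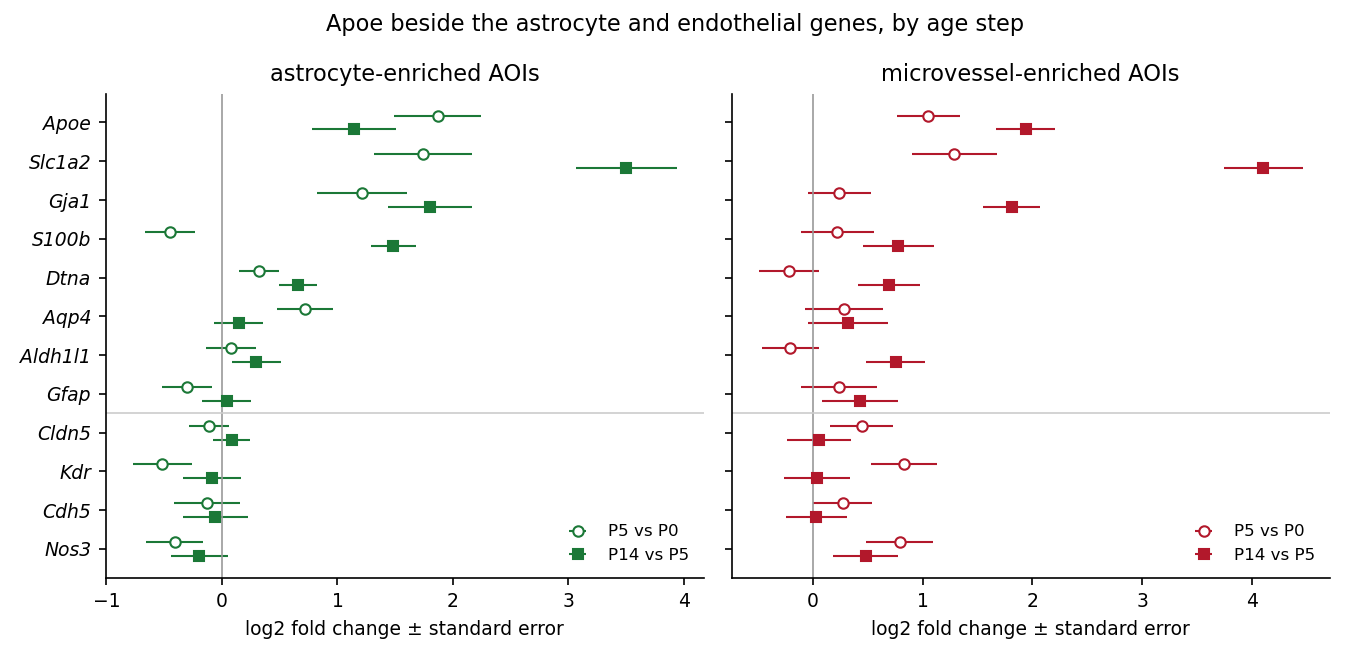
Log2 fold changes with standard errors from edgeR for *Apoe*, 7 other astrocyte genes and, under the grey line, 4 endothelial genes, from P0 to P5 (open circles) and from P5 to P14 (filled squares). In astrocyte-enriched AOIs (left) the first step of *Apoe*, at 1.87, lies to the right of its second, at 1.14, while for *Slc1a2* and *Gja1* the second step lies to the right. In microvessel-enriched AOIs (right) the second step of *Apoe* is at 1.94.

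The slide split of *Apoe* at P5 in astrocyte-enriched AOIs was shared by *Slc1a2*, *Gja1*, *Aqp4* and *Aldh1l1*. *Aqp4* had normalized counts of 16.6 and 15.4 on PO1 and PO2 and of 23.1 and 30.4 on PO3 and PO5. *Gja1* had normalized counts of 18.8 and 18.9 on PO1 and PO2 and of 43.3 and 75.6 on PO3 and PO5. *Slc1a2*, named from 11 of its 12 listed values, had 53.6 and 44.4 on PO1 and PO2 and 98.9 and 157 on PO3 and PO5. At P14 *Gja1*, *Slc1a2*, *Aqp4* and *Aldh1l1* were all highest on PO2, as was *Apoe*, with 223 for *Gja1* and 1690 for *Slc1a2*.

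Likeness to *Apoe* was measured as Pearson's r of log2 (normalized count + 1) over the 12 astrocyte-enriched animals, among 10087 codes at or above the median code in mean level. The points share slides and age groups, so r is a description of these libraries. The highest values were those of codes RTS0062529 and RTS0074968, whose genes are not known here, each with r = 0.97. Code RTS0062529 had mean normalized counts of 25.8 ± 5.44 at P0, 58.4 ± 30.8 at P5 and 150 ± 69.3 at P14 in astrocyte-enriched AOIs (SD, n = 4 animals each). *Gja1* came at place 6 with r = 0.96 and *Slc1a2* at place 25 with r = 0.92, ahead of *Aqp4* with 0.88 and *Dtna* with 0.86. *Aldh1l1* had r = 0.68, *S100b* 0.51 and *Gfap* −0.03. *Hmgb1*, a chromatin protein gene that fell with age, had −0.84. Over the 12 microvessel-enriched animals r was 0.95 for *Slc1a2*, 0.93 for *Gja1*, 0.92 for code RTS0062529, 0.79 for code RTS0074968 and 0.30 for *Aqp4*.

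**Figure D4:**
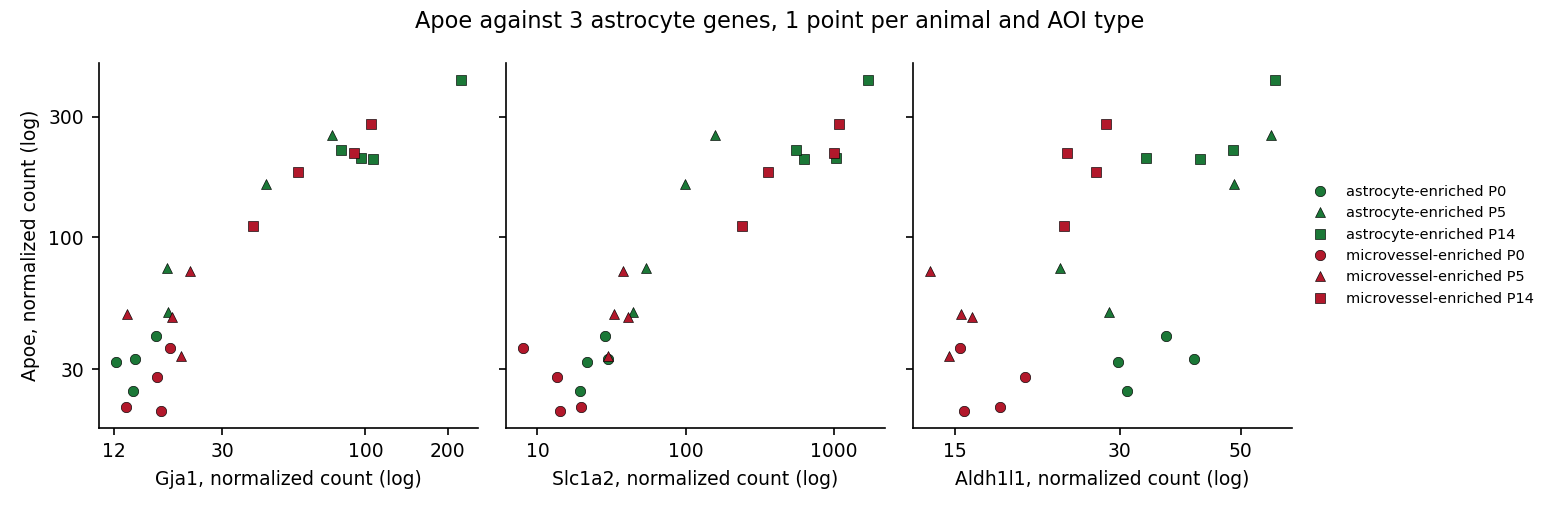
*Apoe* against *Gja1*, *Slc1a2* and *Aldh1l1* (normalized counts, log axes), with 1 point per animal and AOI type, green for astrocyte-enriched and red for microvessel-enriched, and the shape giving the age. *Slc1a2* rises along with *Apoe* in both AOI types, and *Gja1* does so in astrocyte-enriched AOIs. In microvessel-enriched AOIs the mean of *Gja1* is 17.0 at P0, 19.3 at P5 and 72.9 at P14, so it rises mainly in the second step. *Aldh1l1* separates the AOI types at each age and spans a smaller range.

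**Figure D5:**
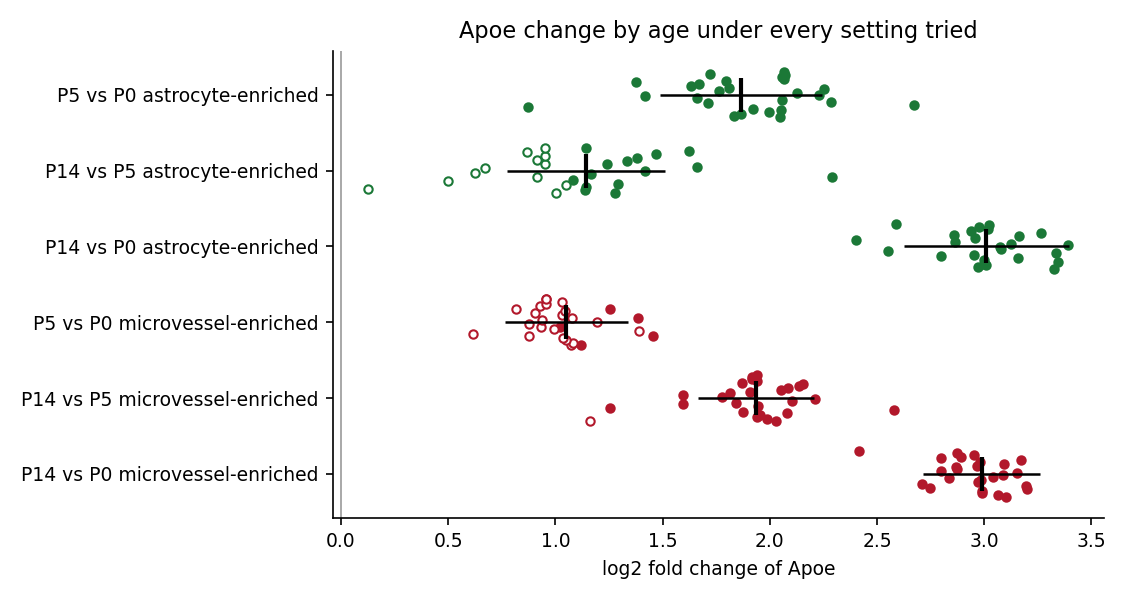
Log2 fold change of *Apoe* for each pair of ages and AOI type under the settings tried. The black cross is the reported value with its standard error, filled dots are alternatives with p under 0.05 (adjusted over all codes, or from the exact permutation test of *Apoe* alone) and open dots those above it. All 4 comparisons other than P14 vs P5 in astrocyte-enriched AOIs and P5 vs P0 in microvessel-enriched AOIs hold filled dots only, apart from 1 open dot at 1.16 for P14 vs P5 in microvessel-enriched AOIs.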

How the data were processed

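Per the file headers, the GeoMx NGS Pipeline 2.3.4 made the deposited counts, which are deduplicated tags of each probe code per AOI and are not normalized. All 48 files summed to the deduplicated reads of their labels. The authors scaled AOIs to equal Q3, compared ages with a linear mixed model and averaged 2 AOIs per mouse. Here the 2 AOIs of an animal were added up as counts and scaled by Q3. Codes that filterByExpr kept went into the quasi-likelihood test of edgeR, with the slide as a block for ages (12 libraries per AOI type) and the animal as a block for AOI types (24 libraries), at an adjusted p of 0.05. The replicates are animals only by inference from slide and region. Where AOIs of 1 animal were in truth split, p-values would be off.

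Gene names rest on equality with the study's listed values, within a relative tolerance of 5e-06: 251 of 252 values of 21 genes matched. The match needed a Q3 at about the 75.2th percentile of all codes (75.18 to 75.22 gave the listed values in all 48 AOIs), whereas values here use the 75th. The rule named *Apoe*, the study's astrocyte, endothelial and angiogenic panels where a code was found, and at most 2 codes most like *Apoe*. *Apoe*, the gene lists and the tests were chosen with earlier results of these data known. The fits were run on simulated counts that held no slide or animal effects, so that run cannot show how they handle the spread between slides. Alternatives were TMM, library totals, DESeq2, no filter, thinning, other slides, animals and tests. Fits on a pair of slides held 2 animals per age, so their p-values say little about the spread between animals. Tools were R 4.3.3, edgeR 4.0.16, DESeq2 1.42.0, lme4 1.1.37, lmerTest 3.1.3, matplotlib 3.10.9, scipy 1.17.1, pandas 2.3.3 and numpy 2.4.6 under Python 3.11.15.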

Additional observations from a re-analysis of the deposited data

Results flagged for a closer look

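The P14 animal of slide PO2 stood apart in astrocyte-enriched AOIs, with an *Apoe* normalized count of 422 against 205 to 223 in the other P14 animals, a gap of 0.917 of the range of the group, which is past the 95% critical value of Dixon's test for 4 samples. Its 2 AOIs had 388 and 456. The same test found no such animal in the other 5 groups of AOI type and age, and it flags about 5% of groups by chance. In microvessel-enriched AOIs the P14 animal of PO2, at 216, lay within the range of its group. In astrocyte-enriched AOIs that animal was also the highest P14 animal for *Gja1*, *Slc1a2*, *Aldh1l1* and *Aqp4*. *Aldh1l1* had 57.7 in it against 33.5 to 48.4 in the others, and *Aqp4* had 32.4 against 16.6 to 24.5. The part of astrocyte content in its *Apoe* value was not tested.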

How the results depend on the processing

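Over 13 comparisons of *Apoe*, 205 of 246 recomputed values kept the direction and the side of the threshold, 18 no longer passed, 18 newly passed and 5 changed sign. For P5 vs P0 in astrocyte-enriched AOIs and P14 vs P0 in both AOI types every alternative passed, with log2 fold changes from 0.87 to 2.67, from 2.40 to 3.39 and from 2.42 to 3.20. The levels of the 6 groups, relative to their mean, moved by less than the SD with counts scaled by the library total in place of Q3. Library totals as the scaling in edgeR, the Q3 at the study's percentile, the AOI pairs of the listed P5 *Apoe* values and the ratio to *Aldh1l1* were added after seeing the data. The linear mixed model takes AOIs as separate samples within a slide, although some share an animal, and its p-values do not account for that.

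For P14 vs P5 in astrocyte-enriched AOIs the values that no longer passed were 1.00 without the replicate block, 0.13 on slides PO3 and PO5, and, in exact permutation tests, 0.95 with normalized counts, with the study's Q3 or with AOIs paired across slides at P5, 0.91 with counts over the library total and 0.87 over *Aldh1l1*. Leaving out a slide or an animal gave 0.50 to 1.66. For P5 vs P0 in microvessel-enriched AOIs the values that newly passed were 1.12 in DESeq2, 1.46 on slides PO3 and PO5, 1.02 with the 2 ages alone, 1.26 over *Aldh1l1* and 0.95 with AOIs paired across slides; leave-one-out values ran from 0.82 to 1.39. P14 vs P5 in microvessel-enriched AOIs lost its call only over *Aldh1l1* (1.16), with leave-one-out values from 1.60 to 2.21.

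The log2 ratio of microvessel to astrocyte over all ages lost its call without the replicate block (−0.65) and on slides PO1 and PO2 (−0.32), and ran from −0.69 to −0.45 with a slide left out; by exact sign-flip permutation over 12 animals it was −0.63 (p = 0.00684) and, with a pseudocount of 5, −0.60 (p = 0.0083). At P5 it was −0.54 on slides PO1 and PO2. At P14 it passed when thinned (−0.38), on slides PO3 and PO5 (−0.45) and without slide PO1, with a leave-one-out range of −0.62 to −0.050. The change of the ratio from P0 to P5 passed with TMM (−0.86), when thinned (−1.42) and on slides PO3 and PO5 (−1.26), with leave-one-out values from −1.14 to −0.49. From P5 to P14 it passed with TMM (0.88), library totals (0.94), when thinned (1.21) and on slides PO3 and PO5 (1.18), with leave-one-out values from 0.52 to 1.43. From P0 to P14 it changed sign without the replicate block (−0.0011), in DESeq2 (−0.050), when thinned (−0.21), on slides PO3 and PO5 (−0.074) and without slide PO1 (−0.28), up to 0.29 with another slide left out, and passed under none. The replicate block changed no other call. The causes of these differences were not tested.

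Over all codes, the number called moved by more than 1.5 times under some alternatives in each comparison, for example from 2010 to between 1190 and 6861 for P5 vs P0 and from 2526 to between 1257 and 13795 for P14 vs P5 in astrocyte-enriched AOIs, and from 56 to between 12 and 508 for P5 vs P0 in microvessel-enriched AOIs. Counts under 30 per AOI limit the microvessel values at P0 and P5, and the ratio to *Aldh1l1* at P5 rests on still fewer *Aldh1l1* counts.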
